A study of Rattus norvegicus with 27 samples.

Results

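Ubd, Isg15, Uba7, Ube2l6, Usp18, Dtx3l and Parp9 are 7 genes that encode ubiquitin-like modifiers or proteins that handle or attach such modifiers, and that are known to answer to interferons. They were followed in cultured rat oligodendrocyte precursor cells (OPCs) given interferon gamma (IFNγ). They were chosen by symbol: every probe set of the Affymetrix rat arrays that the platform annotation pairs with 1 of these symbols alone was taken, which gave 7 of the 14217 genes with such a probe set, and 9 of the 31042 probe sets analysed. Uba7 has 3 probe sets and each other gene has 1. The 27 arrays came from OPCs selected with beads against A2B5, a surface marker of glial progenitors, from the cerebral cortices of early postnatal rat pups and expanded with PDGF, a growth factor that keeps them dividing. There were 9 groups of 3 arrays, 1 array from each of 3 donors. In the T3+IFNγ and T3 groups PDGF was withdrawn and thyroid hormone (T3), which starts differentiation into oligodendrocytes, was given with or without IFNγ for 8, 24, 48 or 96 h. The PDGF group was collected at 0 h, before either agent, so a difference between T3 and PDGF cultures also holds the loss of PDGF and the time in culture. No genotype or transgene was involved, and how many pups make up a donor is not given in the sources used here.

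Ubiquitin-like proteins are small proteins that cells attach to other proteins. An E1 enzyme activates the modifier, an E2 enzyme carries it, an E3 ligase attaches it and a protease takes it off again. Ubd, also called FAT10, carries a pair of ubiquitin-like domains and sends its targets to the proteasome, while Isg15 is a modifier of the antiviral response. Interferons act through STAT and IRF transcription factors, which bind promoter elements known as GAS and ISRE.

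The RefSeq promoter windows of the members (assembly GRCr8, 250 bases before to 50 bases after the start of the gene) were searched on both strands for the core of the ISRE (GAAA, any 2 bases, GAAA) and for the GAS element (TTC, any 3 bases, GAA). A window was found for 5 of the 7 members, namely Ubd, Dtx3l, Parp9, Ube2l6 and Uba7. The ISRE core was in 1 of the 5, that of Dtx3l, and in 3.92% of all 33469 windows. The GAS element was in 0 of the 5 and in 8.87% of all windows. The windows of Dtx3l, of its neighbour Parp9 on the opposite strand and of Ubd, the member with the largest difference at 96 h, are shown because the results below turn on these genes. Capitals mark the ISRE core, which begins at base 11 of the gene, counted from 1 at its start.
Dtx3l promoter, chr11:78319975-78320274, plus strand: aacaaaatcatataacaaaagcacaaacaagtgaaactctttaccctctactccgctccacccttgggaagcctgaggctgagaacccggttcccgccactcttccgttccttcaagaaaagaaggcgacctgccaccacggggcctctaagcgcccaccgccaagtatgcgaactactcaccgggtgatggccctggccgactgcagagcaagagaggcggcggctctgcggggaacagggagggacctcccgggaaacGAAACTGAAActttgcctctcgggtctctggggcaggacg
Parp9 promoter, chr11:78318962-78319261, minus strand: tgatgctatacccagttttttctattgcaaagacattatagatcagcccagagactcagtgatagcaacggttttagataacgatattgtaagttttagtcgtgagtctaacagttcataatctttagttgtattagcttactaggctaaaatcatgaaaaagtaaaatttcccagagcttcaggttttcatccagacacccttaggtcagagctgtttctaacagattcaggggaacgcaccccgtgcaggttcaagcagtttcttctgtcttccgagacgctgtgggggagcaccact
Ubd promoter, chr20:1392636-1392935, minus strand: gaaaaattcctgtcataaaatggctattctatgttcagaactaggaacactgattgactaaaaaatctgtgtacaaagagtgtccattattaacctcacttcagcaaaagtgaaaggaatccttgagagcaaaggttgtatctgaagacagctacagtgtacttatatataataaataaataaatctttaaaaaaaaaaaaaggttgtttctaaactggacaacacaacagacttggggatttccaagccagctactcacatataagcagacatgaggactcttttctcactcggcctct
A match is a run of letters in this window and not a measured binding site.

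Signals are RMA values on the log2 scale, so a difference of 1 is a 2-fold difference. The median of all values was 5.99 and the medians of single arrays lay between 5.95 and 6.03. All 6 OPC markers measured were above that median in every group, 7 of 8 astrocyte markers were above it in every group (mean level 8.82 to 10.72), and T cell and vascular markers had mean levels of at most 5.47 and 4.71. Microglia and macrophage markers were present and moved with time and with IFNγ, and their levels are given beside the results. The T3+IFNγ arrays of donor 2 at 8 and 24 h had a Gapdh 3′ signal above the 5′ signal by 0.372 and 0.108, against −0.261 to 0.0658 in all other arrays. Probe sets differ in how brightly they read, so levels are compared between arrays and not between genes.

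To ask how strongly IFNγ raised these genes, T3+IFNγ cultures were compared with T3 cultures of the same time. All 9 member probe sets were higher with T3+IFNγ at 8, 24, 48 and 96 h, and in each case all 3 donors moved the same way. By limma at an adjusted p under 0.05, 2.7%, 4.28%, 5.64% and 5.51% of all probe sets were higher at these times. The median difference of the 9 was 3.23, 3.73, 3.79 and 3.67, while over all probe sets it was −0.0331, −0.0378, −0.0487 and −0.0399. For every member probe set and time the 3 T3+IFNγ arrays lay above the 3 T3 arrays with no overlap. The share of all probe sets separated in this way was not counted. The members were chosen as interferon genes with earlier results of these data known, so these counts describe the genes and are not a test.

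Ubd had the steepest course. At 8 h its signal was 10.31, 8.35 and 9.38 in the T3+IFNγ cultures of donors 1, 2 and 3, against 4.97, 4.79 and 5.19 in the T3 cultures. At 24 h it was 12.41, 11.63 and 12.94 with T3+IFNγ and 4.98, 5.07 and 4.76 with T3. At 48 h it was 13.24, 12.58 and 13.40 with T3+IFNγ and 5.04, 5.15 and 4.78 with T3, and at 96 h 12.57, 12.28 and 13.12 with T3+IFNγ and 4.69, 4.62 and 4.66 with T3. Donor 2 had the lowest T3+IFNγ signal at all 4 times, and the T3 arrays stayed under the median of all values throughout. The log2 difference was 4.36 at 8 h (standard error 0.34, limma adjusted p = 1.67e-09), 7.39 at 24 h, 8.08 at 48 h and 8.00 at 96 h (adjusted p = 1.46e-14). No detection calls were used, so it is not known whether the T3 signals of Ubd stood above background, and no fold is given. The T3 means of Dtx3l, Parp9 and Uba7 were also under the median of all values at all 4 times, as was that of Ube2l6 at 96 h. The same limit holds for the size of their differences. Among all probe sets, ranked by the difference as measured, Ubd stood at place 49 at 8 h, 7 at 24 h, 2 at 48 h and 1 at 96 h.

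Isg15 was near its later level by 8 h. After 8 h with T3+IFNγ it read 10.66, 10.74 and 10.85, and after 24 h 11.19, 11.24 and 11.36. With T3+IFNγ for 48 h it read 11.49, 11.04 and 11.25, and for 96 h it read 11.21, 10.83 and 11.12. The 12 T3 arrays lay between 5.73 and 6.63. Every T3+IFNγ array lay far above every T3 array, and the T3+IFNγ groups were close together. The difference was 4.62 at 8 h (standard error 0.24, limma adjusted p = 6.64e-13), 5.22 at 24 h, 5.15 at 48 h and 4.88 at 96 h.

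**Figure D1:**
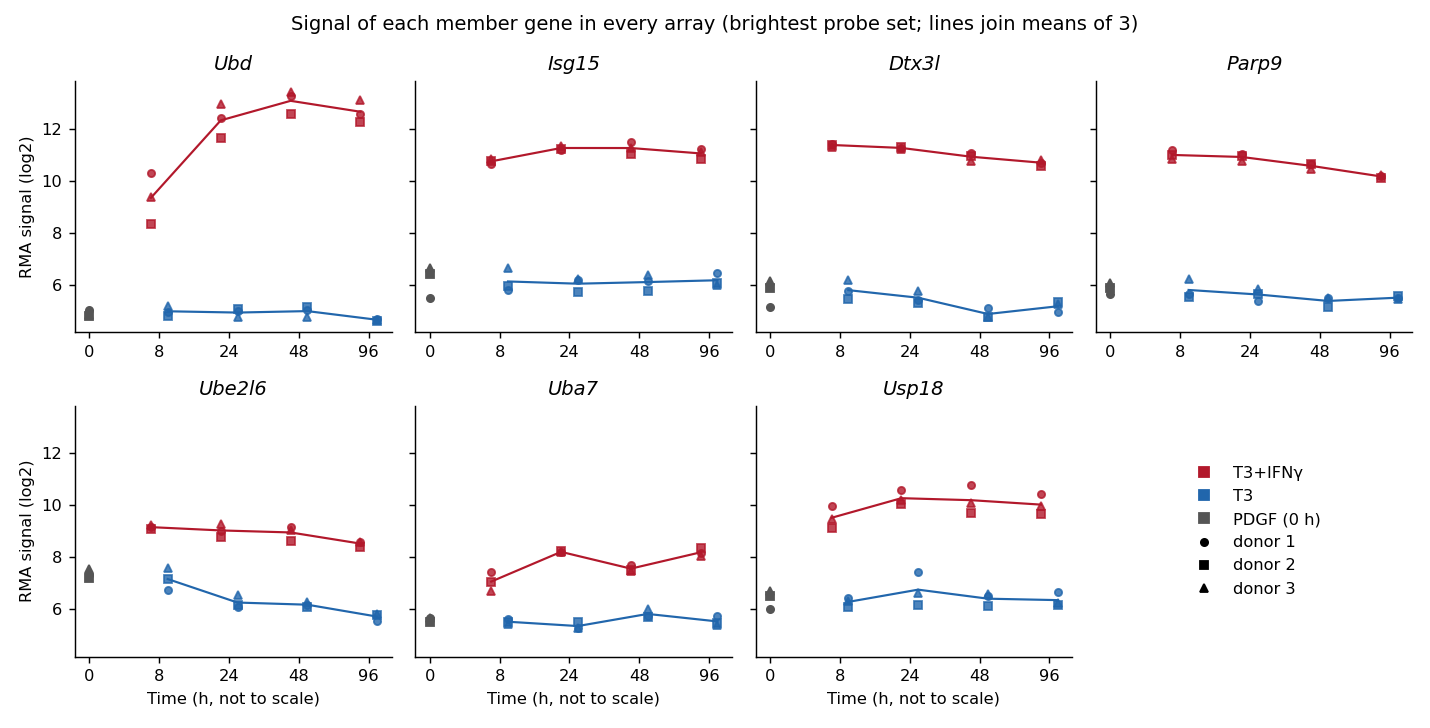
RMA signal on the log2 scale (vertical axis) of the 7 member genes, each read from its brightest probe set, at 0, 8, 24, 48 and 96 h (horizontal axis, not to scale). Points are single arrays, with the marker giving the donor, and lines join the means of 3 T3+IFNγ or 3 T3 arrays; the T3+IFNγ points of Ubd climb between 8 and 24 h while those of Dtx3l and Parp9 are at their highest at 8 h.

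The enzymes that load Isg15 onto proteins were raised too, with smaller measured differences. Uba7, the E1 enzyme of Isg15, is read by 3 probe sets. Its brightest, 1386277_at, had T3+IFNγ signals of 7.45, 7.05 and 6.72 at 8 h and 8.20, 8.24 and 8.21 at 24 h, against T3 signals of 5.64, 5.51 and 5.44 at 8 h and 5.30, 5.52 and 5.27 at 24 h. At 48 h it read 7.72, 7.52 and 7.48 with T3+IFNγ and 5.76, 5.72 and 6.003 with T3, and at 96 h 8.17, 8.37 and 8.06 with T3+IFNγ and 5.76, 5.47 and 5.40 with T3. On this probe set the T3+IFNγ arrays of 48 h lay below all those of 24 and 96 h, but the calls of both steps were lost without donor 2, and 1379634_at had its highest T3+IFNγ mean at 48 h. The differences were 1.54, 2.85, 1.74 and 2.66 at 8, 24, 48 and 96 h (standard error 0.14 each, limma adjusted p between 2.06e-08 and 1.60e-13).

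The 3 probe sets of Uba7 agreed in direction and not in size. For 1379633_a_at the differences with IFNγ were larger, 2.46, 3.73, 3.18 and 3.43. The remaining probe set, 1379634_at, had group means of 6.12, 6.27, 6.39 and 6.32 with T3+IFNγ and 5.65, 5.61, 5.89 and 5.86 with T3, and differences of 0.47, 0.66, 0.50 and 0.46 (limma adjusted p = 0.0332, 0.000853, 0.00807 and 0.0171). These calls were lost at every time without donor 2, with adjusted p = 0.812, 0.103, 0.169 and 0.0919, at 8 h also without donor 1 (0.139) and at 96 h also without donor 3 (0.290).

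Ube2l6, the E2 enzyme that carries Isg15, read 9.17, 9.08 and 9.24 with T3+IFNγ at 8 h, against 6.76, 7.17 and 7.58 with T3. At 96 h it read 8.58, 8.42 and 8.60 with T3+IFNγ, against 5.57, 5.80 and 5.82 with T3. All 3 arrays of either group were lower at 96 h than at 8 h. The difference was 2.00, 2.77, 2.78 and 2.81 at the 4 times (standard error 0.17 each, limma adjusted p between 1.19e-08 and 1.64e-11).

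Usp18, the protease that takes Isg15 off its targets and that also restrains signalling by the type I interferon receptor, read 9.97, 9.14 and 9.46 with T3+IFNγ at 8 h and 10.43, 9.69 and 9.98 at 96 h. The T3 arrays were at 6.44, 6.10 and 6.34 at 8 h and 6.67, 6.17 and 6.24 at 96 h. Donor 1 was the highest of the T3+IFNγ donors at all 4 times, and its T3 array of 24 h, at 7.46, was the highest of all T3 arrays. The differences were 3.23, 3.52, 3.79 and 3.67 (standard error 0.29 each, limma adjusted p between 2.63e-08 and 1.26e-09).

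Dtx3l, a ubiquitin ligase of the Deltex family, and Parp9, the macrodomain protein it pairs with, were at their highest at 8 h. Dtx3l read 11.43, 11.38 and 11.32 with T3+IFNγ at 8 h, against 5.76, 5.44 and 6.19 with T3, and 10.69, 10.59 and 10.82 with T3+IFNγ at 96 h, against 4.94, 5.34 and 5.25 with T3. Parp9 read 11.17, 10.98 and 10.84 with T3+IFNγ at 8 h, against 5.65, 5.54 and 6.22 with T3, and 10.19, 10.10 and 10.21 with T3+IFNγ at 96 h, against 5.49, 5.58 and 5.45 with T3. For either gene the T3+IFNγ arrays of 96 h lay below all those of 8 h. The differences of Dtx3l were 5.58, 5.76, 6.05 and 5.52, and those of Parp9 were 5.19, 5.29, 5.19 and 4.66 (standard errors 0.19 and 0.15, limma adjusted p of at most 5.80e-16). Over the 27 arrays the signals of this pair correlated with r = 0.998, and over the 12 T3+IFNγ arrays with r = 0.962, the highest r of any pair of members in both cases. These r are descriptions, since the arrays share donors and treatments.

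**Figure D2:**
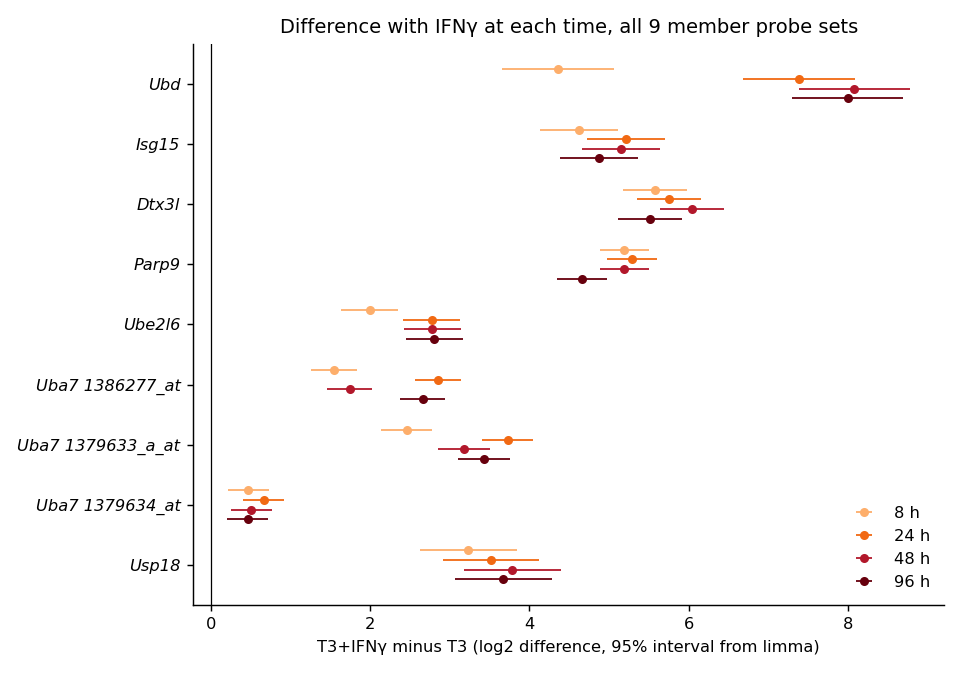
Log2 difference between T3+IFNγ and T3 (horizontal axis) of the 9 member probe sets (rows) at 8, 24, 48 and 96 h (colours), with 95% intervals from limma. For Ubd the difference is 4.36 at 8 h and 8.00 at 96 h, the intervals of Isg15, Dtx3l and Usp18 overlap across times, and the 3 probe sets of Uba7 differ in size.

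The marker genes of microglia and macrophages moved in the same direction. Of 15 measured of 16 listed, 1, 4, 4 and 7 were higher with T3+IFNγ than with T3 at 8, 24, 48 and 96 h and 0 were lower by limma (10 higher and 0 lower at 96 h at an unadjusted p under 0.05), with C1qa, C1qb, C1qc, Aif1, Tyrobp, Fcer1g and P2ry12 called at 96 h. Cx3cr1, Trem2 and Tmem119 were under the median of all values in both groups at 96 h. The mean signal of the 15 markers was 6.40 to 7.92 with T3+IFNγ and 5.17 to 5.59 with T3 at 96 h. At 8 h it was 6.98, 6.96 and 8.04 in the T3+IFNγ cultures of donors 1, 2 and 3, against 6.48, 6.58 and 7.69 in the T3 cultures, higher in 3 of 3 donors. In bulk RNA, fewer cells of a type and less RNA per cell cannot be told apart. At 96 h T3+IFNγ arrays also had lower oligodendrocyte markers (4 of 7 called, mean signal 11.08 to 11.70, against 12.87 to 13.09 with T3) and higher neuron markers (2 of 8 called, 7.44 to 7.70, against 6.63 to 7.16 with T3). Of the astrocyte markers 0, 1, 1 and 1 of 8 were higher with T3+IFNγ at the 4 times. The part of these marker shifts in the member differences was not tested.

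Whether the response kept growing was read from the T3+IFNγ arrays alone and from the change of the IFNγ difference with time. Between 8 and 24 h Ubd and Uba7 rose, and no other member was called. Ubd rose by 2.98 (standard error 0.34, limma adjusted p = 6.11e-07) with single donors at 2.10, 3.28 and 3.56. Uba7 rose by 1.14 on 1386277_at and by 1.26 on 1379633_a_at (adjusted p = 1.47e-06 and 2.13e-06). These were 3 of 9 probe sets, against 9.56% of all probe sets higher. Isg15 differed by 0.51 (adjusted p = 0.156) and Usp18 by 0.75 (adjusted p = 0.0807), with all 3 donors above 0 for both. With donors as blocks Usp18 passed the threshold (adjusted p = 0.00992), as it did without donor 1 (0.00529), while over the alternatives its adjusted p ran from 0.00529 to 0.389. Isg15 passed it where only the groups compared were fitted (0.0195).

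From 8 to 96 h the T3+IFNγ signals of the members went separate ways. Ubd was higher by 3.31 (limma adjusted p = 3.85e-08) and the same 2 probe sets of Uba7 by 1.12 and 1.17. Dtx3l fell by 0.68 (adjusted p = 0.00773), Parp9 fell by 0.83 (0.000104) and Ube2l6 fell by 0.63 (0.00578), each in 3 of 3 donors. That is 3 higher and 3 lower of 9, against 15.2% and 17.8% of all probe sets. Without donor 2 the falls of Dtx3l and Ube2l6 were no longer called (adjusted p = 0.117 and 0.0685), and without donor 1 the rise of Usp18 was (0.53, adjusted p = 0.0442). The T3 means of Dtx3l, Parp9 and Ube2l6 were also lower at 96 h (5.18, 5.51 and 5.73) than at 8 h (5.80, 5.80 and 7.17). A fall of signal is therefore not by itself a fall of the IFNγ difference. That difference changed from 8 to 96 h by −0.06 for Dtx3l, −0.53 for Parp9 and 0.81 for Ube2l6. None of these changes was called in the main fit, and more on them is given below.

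Between 24, 48 and 96 h Uba7 alone was called, on 2 of its 3 probe sets. From 24 to 48 h 1386277_at fell by 0.65 (limma adjusted p = 0.00322) and 1379633_a_at fell by 0.55 (adjusted p = 0.0249), 2 of 9 against 6.26% of all probe sets lower. From 48 to 96 h they rose by 0.63 and 0.46 (adjusted p = 0.00210 and 0.0420), 2 of 9 against 9.21% higher. Ube2l6 had a difference of −0.43 from 48 to 96 h (adjusted p = 0.0983) that was called with donors as blocks (0.0213). Without donor 2 neither step was called on either probe set (adjusted p = 0.144 and 0.543 for the fall and 0.160 and 0.462 for the rise). The fall of 1386277_at was also lost without donor 3 (0.0574), that of 1379633_a_at without the T3+IFNγ arrays of donor 2 at 8 and 24 h (0.173), and the rise of 1379633_a_at without donor 1 (0.102).

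**Figure D3:**
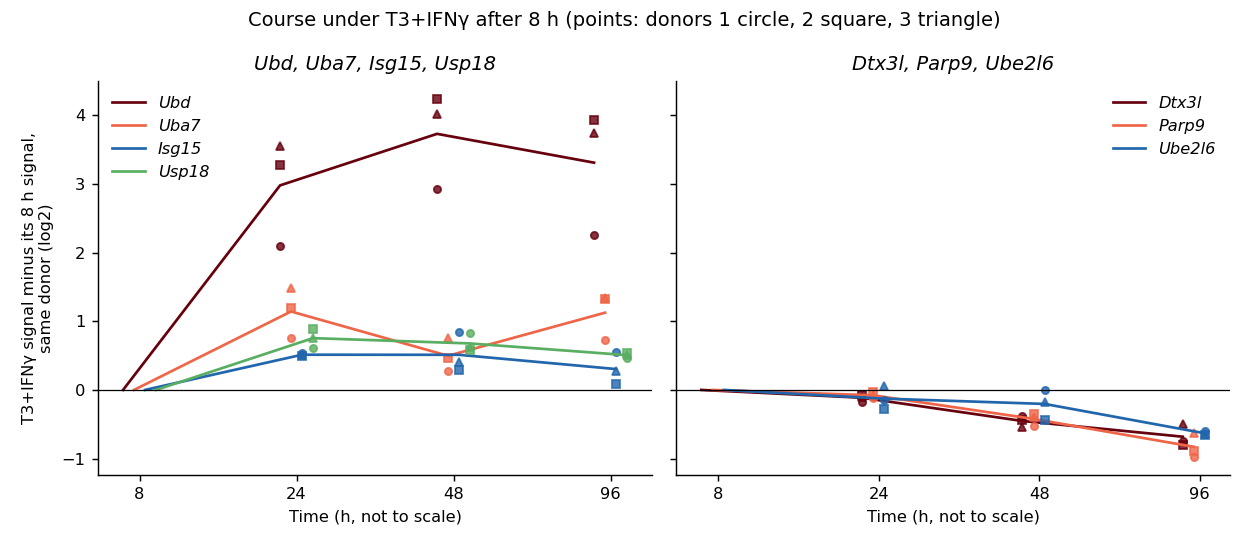
Signal of T3+IFNγ cultures minus the 8 h signal of the same donor (vertical axis, log2) at 24, 48 and 96 h (horizontal axis, not to scale), with points for donors and lines for their means. Ubd ends 3.31 above its 8 h level and Uba7 (1386277_at) 1.12 above it with a lower mean at 48 h than at 24 and 96 h, while Dtx3l, Parp9 and Ube2l6 end 0.68, 0.83 and 0.63 below it.

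The difference with IFNγ itself was larger at 24 h than at 8 h for Ubd, by 3.03 (standard error 0.48, limma adjusted p = 0.00197), and for Uba7, by 1.31 on 1386277_at and 1.27 on 1379633_a_at (adjusted p = 0.000923 and 0.00532). These were 3 of 9 probe sets, against 0.261% of all. At 96 h against 8 h the same 3 were called, with 3.64 for Ubd and 1.11 and 0.97 for Uba7 (adjusted p = 4.19e-05, 0.00125 and 0.0132), against 1.46% of all probe sets. The call of Ubd at 24 h was lost without donor 3 (2.55, adjusted p = 0.345), and its 96 h value kept its call under every alternative run, with adjusted p of at most 0.0272. The values of Uba7 on 1386277_at and 1379633_a_at were lost without donor 2 (adjusted p = 0.230 and 0.249 at 24 h, 0.190 and 0.196 at 96 h) and without donor 3 (0.117 and 0.203, 0.0570 and 0.184). Ube2l6 had differences of 0.78 and 0.81 that were not called (adjusted p = 0.268 and 0.0814) and that were called with donors as blocks (adjusted p = 0.0450 and 0.0107). For Isg15, Dtx3l, Parp9 and Usp18 the change of the difference lay between −0.53 and 0.60 with no call. At 96 h against 8 h the interval of Dtx3l ran from −0.63 to 0.51. That of Parp9 ran from −0.97 to −0.09, with 2 of 3 donors below 0 (limma adjusted p = 0.235). These intervals are not adjusted for the number of probe sets. At 24, 48 and 96 h donor 3 had the highest and donor 2 the lowest Ubd signal and the highest and lowest mean of microglia and macrophage markers in T3+IFNγ cultures (8.22, 8.43 and 7.92 for donor 3, 7.08, 6.84 and 6.40 for donor 2). In T3+IFNγ cultures of 8 h donor 1 had the highest Ubd signal (10.31, against 9.38 in donor 3) and donor 3 the highest marker mean (8.04, against 6.98 in donor 1). The part of those cells in the course of Ubd was not tested.

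Without IFNγ, Ube2l6 was lower in T3 than in PDGF cultures from 24 h on. Dtx3l and Parp9 were lower too, with calls that depended on single donors. T3 cultures were compared with the same 3 PDGF arrays at each time. At 8 h limma called 0 of 9 (0 at an unadjusted p under 0.05, 0 with donors as blocks), against 7.81% of all probe sets. Ube2l6 fell by 1.10, 1.18 and 1.64 at 24, 48 and 96 h (standard error 0.17 each, adjusted p = 2.96e-05, 8.25e-06 and 3.45e-08). Its T3 signal was 5.57, 5.80 and 5.82 at 96 h, against 7.31, 7.21 and 7.56 in PDGF cultures, and all 3 donors fell at each of these times. Dtx3l fell by 0.85 at 48 h and by 0.55 at 96 h (adjusted p = 0.00120 and 0.0235), and Parp9 fell by 0.50 at 48 h (0.0119). At 96 h Parp9 had a difference of −0.37 (adjusted p = 0.0502, and 0.0454 with donors as blocks). The calls of Dtx3l were lost without donor 2 (0.0678 and 0.125) and without donor 3 (0.0573 and 0.191), and that of Parp9 without donor 2 (0.226).

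In all, 1, 3 and 2 of 9 member probe sets were lower at 24, 48 and 96 h, against 12.8%, 18.5% and 22.8% of all probe sets, a share close to that of all probe sets at 24 and 96 h. The dim probe set of Uba7, 1379634_at, was higher by 0.35 and 0.32 at 48 and 96 h (adjusted p = 0.0332 and 0.0409), 1 of 9 against 14.9% and 20.2% of all probe sets, which did not last when any donor was left out (adjusted p from 0.0844 to 0.175 and from 0.0558 to 0.211). Its other probe sets were not called. Ubd averaged 4.66 ± 0.035 with T3 at 96 h and 4.89 ± 0.14 with PDGF (SD, n = 3 each), Isg15 averaged 6.18 ± 0.26 with T3 and 6.19 ± 0.60 with PDGF, and Usp18 6.36 ± 0.27 with T3 and 6.41 ± 0.36 with PDGF. These pairs differed by less than the spread between replicates except for Ubd, whose difference of −0.24 had an adjusted p of 0.622. Over the same span 11 of 15 microglia and macrophage markers fell, with a mean signal of 5.17 to 5.59 in T3 cultures at 96 h and 6.38 to 7.49 in PDGF cultures, while 4 of 8 astrocyte markers rose and 1 fell (mean signal 9.86 to 10.37 in T3 cultures and 8.82 to 9.42 in PDGF cultures). The part of either in the falls of Ube2l6, Dtx3l and Parp9 was not tested.

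Other genes of the same pathways were less uniform. Of the 7 further genes measured of the Isg15 cycle, 2 were higher with IFNγ at each time and 0, 1, 2 and 1 were lower at 8, 24, 48 and 96 h, beside 0.921%, 4.38%, 6.35% and 4.58% of all probe sets lower. The higher ones were Herc6, the main Isg15 ligase in mice, with 2.29, 2.52, 3.49 and 2.96, and Trim25, a ligase of antiviral signalling, with 1.73, 2.40, 2.05 and 2.25. Herc6 read dim, with T3 means of 2.84 to 3.08 and T3+IFNγ means of 5.37 to 6.33, beside a median of all values of 5.99. Ube2e2, an E2 enzyme, was not called at 8 h (−0.08) and fell by 0.73, 0.55 and 0.53 at the later times (limma adjusted p = 0.000888, 0.00910 and 0.0129). Its calls were lost without donor 2 (0.246 for 48 h and 0.0879 for 96 h) and without donor 3 (0.240 and 0.203). Arih1, a ubiquitin ligase, fell by 0.41 at 48 h alone (adjusted p = 0.00962, and 0.298 without donor 2). Of the 7 further genes measured of the FAT10 pathway, which holds its E1 enzyme Uba6, only Nub1 was called with IFNγ at any of the 4 times. Nub1, which binds FAT10 and speeds its degradation, was higher by 1.67, 1.63, 1.64 and 1.39.

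Of the E3 ligases known to answer to interferon, a list chosen for that trait, 7 of 9 measured genes were higher at every time. The shares of all probe sets higher were 2.7%, 4.28%, 5.64% and 5.51% at 8, 24, 48 and 96 h. The median difference of the list was 2.25 at 96 h. It shares genes with the Isg15 cycle, among them Herc6, so the counts of these lists are not separate. Rnf213 was higher by 3.91, Trim34 by 3.33 and Trim5 by 3.16 at 96 h. In the Deltex and PARP families, 5, 5, 7 and 6 of the 14 genes besides Dtx3l and Parp9 were higher by limma, beside the same shares. In these families 0 were lower (0 also at an unadjusted p under 0.05). Parp14, a macrodomain protein like Parp9, was higher by 4.57 at 96 h, Parp12 by 3.996, Parp10 by 2.71 and Parp11 by 2.02.

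In the general ubiquitin machinery the calls were fewer and each under 1 on the log2 scale. Of the falls among its E2 enzymes, only that of Ube2d1 at 96 h kept its call whichever donor was left out. Of 16 E2 enzymes measured, among them Ube2l3, the relative of Ube2l6 that works with ubiquitin, 0 were higher at any time by limma (0, 2, 1 and 0 at an unadjusted p under 0.05). The counts lower were 1, 1, 0 and 3 at 8, 24, 48 and 96 h, beside 0.921%, 4.38%, 6.35% and 4.58% of all probe sets lower. At 24 h the count was close to that share. Ube2s, which extends ubiquitin chains in mitosis, fell by 0.37 at 8 h and by 0.38 at 24 h (adjusted p = 0.0416 and 0.0192), and neither call held when any donor was left out (0.0722 to 0.611 and 0.0531 to 0.255). At 96 h Ube2d1 fell by 0.65, Ube2g1 fell by 0.37 and Ube2d2 fell by 0.25 (adjusted p = 0.000166, 0.00328 and 0.0428), of which Ube2g1 and Ube2d2 were not called when any donor was left out (0.0626 to 0.0682 and 0.136 to 0.346). Of 7 other E1 enzymes, Uba1, the E1 enzyme of ubiquitin, was the only one called, higher by 0.71 at 48 h and 0.57 at 96 h (adjusted p = 0.00296 and 0.0189, at 96 h 0.160 without donor 1 and 0.140 without donor 3).

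Of 6 other ubiquitin-like modifiers measured of 12 listed, 0 were higher by limma (0 at an unadjusted p under 0.05) and 0, 1, 3 and 1 were lower, so that 3 of 6 were lower at 48 h beside 6.35% of all probe sets. Urm1, which takes part in the thiolation of transfer RNA, fell by 0.53, 0.65 and 0.39 at 24, 48 and 96 h (adjusted p = 0.00718, 0.000765 and 0.0466). Its calls were lost without donor 2 (0.0752, 0.0747 and 0.291), at 24 and 96 h also without donor 3 (0.178 and 0.225) and at 96 h also without donor 1 (0.0655). At 48 h Ufm1, the modifier of ribosomes at the endoplasmic reticulum, fell by 0.41 and Sumo3, a form of SUMO, fell by 0.30 (adjusted p = 0.0197 and 0.0440). Neither was called without donor 2 (0.0782 and 0.566) or without donor 3 (0.198 and 0.287), nor was Ufm1 without donor 1 (0.0669). The median differences at 8, 24, 48 and 96 h were −0.0675, −0.107, −0.105 and −0.0440 for the E2 enzymes, −0.0015, −0.0836, −0.0336 and 0.146 for the E1 enzymes and −0.0477, −0.175, −0.242 and 0.0531 for the modifiers, beside −0.0331, −0.0378, −0.0487 and −0.0399 over all probe sets.

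**Figure D4:**
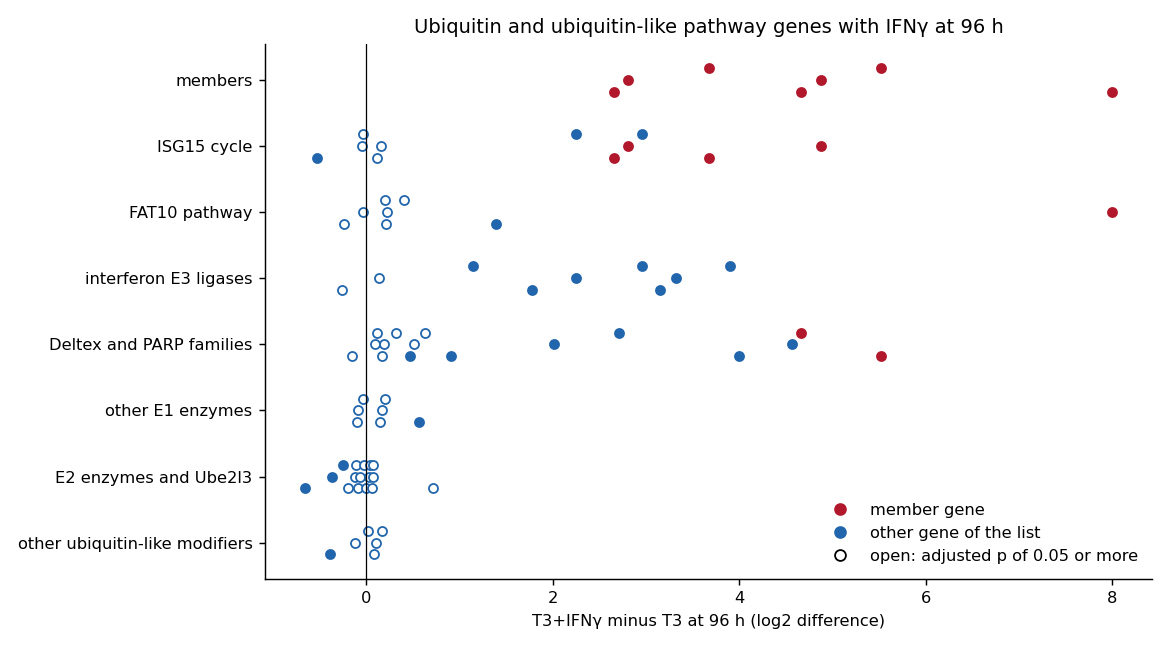
Log2 difference between T3+IFNγ and T3 at 96 h (horizontal axis) for the genes of each list (rows; vertical offsets only separate points), with member genes in red, other genes in blue and genes at an adjusted p of 0.05 or more as open circles. Of the interferon E3 ligases 7 of 9 lie above 1, as do Parp10, Parp11, Parp12 and Parp14, while the other E1 enzymes, E2 enzymes and modifiers lie within 1 of 0.

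For each member the non-member genes with the most similar signal over the 27 arrays were listed by Pearson r, as a description over arrays that share donors and treatments. Ubd was most like RT1-N3, a class I histocompatibility gene (r = 0.990), Il18bp and Bst2. Isg15 was most like Gbp2 (r = 0.996), Rtp4 and Irgm2, and Usp18 like Mx1 (r = 0.988), RGD1309362 and Rtp4. Dtx3l was most like Irf1 (r = 0.996), Rnf213 and Eif2ak2, and Parp9 like Rnf213 (r = 0.996), Parp14 and Ifi44l. Uba7 stood with class II histocompatibility genes, RT1-Da (r = 0.976) and RT1-Db1, and with RT1-M3-1, and Ube2l6 with RT1-DMa (r = 0.970), Sp110 and Inpp1. Within the 12 T3+IFNγ arrays, Ubd correlated with Isg15 at r = 0.763 and with Dtx3l at r = −0.646.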

How the data were processed

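The authors summarized the Affymetrix arrays by RMA, which corrects background, normalizes by quantiles and deposits 1 log2 signal per probe set; the submitters' processing notes name RMA and limma without versions. The deposited log2 values of 31099 probe sets were used as given, leaving out 57 controls. The platform annotation of 2016 gives 1 symbol for 20826 of the other 31042, several for 436 and none for 9780, and all 7 members were found in RefSeq by Entrez identifier. A linear model with a mean for each of the 9 groups was fitted to all 27 arrays with limma 3.58.1 in R 4.3.3, with eBayes moderation and Benjamini-Hochberg adjustment over 31042 probe sets in each of 14 comparisons; a probe set was called at an adjusted p under 0.05. Genes outside the members were read from their brightest probe set. Tables and plots were made in Python 3.11.15 (NumPy 2.4.6, pandas 2.3.3; matplotlib 3.10.9).

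The labels give the donor of each array, so donors pair the groups: deviations from group means correlated with a median r of 0.295 within donors and −0.151 between donors. Since the deviations of a group sum to 0, the value between donors is not separate evidence. The main fit held no donor term, and donors as blocks were run as an alternative. The fit was tested on simulated arrays with changes added to the T3+IFNγ group of 96 h. It called 48% of 1.5-fold, 90% of 2-fold, 98% of 4-fold and 100% of 8-fold changes (50 probe sets each). It also called 7 unchanged probe sets. The simulated noise held no correlation within donors, unlike the data. A change of 1.5-fold or less can therefore be missed. With 3 arrays in each group the number of arrays limits the precision, and no detection calls were used. Named genes are all members, up to 4 called genes per pathway list with the largest IFNγ difference at 96 h, any called gene against its list at that time, and the 3 genes most like each member. Pathway genes lower with IFNγ at other times were named after their values were seen. The members and lists were chosen with earlier results of these data known. IFNγ-alone cultures are not analysed here.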

Additional observations from a re-analysis of the deposited data

Results flagged for a closer look

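A change of the IFNγ difference with time was called in 6 tests of the change itself. Only that of Ubd between 96 and 8 h kept its call whichever donor was left out. Between 24 and 8 h it grew by 3.03 for Ubd (donors 2.10, 2.997 and 3.99), by 1.31 for Uba7 on 1386277_at (donors 1.10, 1.18 and 1.65) and by 1.27 for Uba7 on 1379633_a_at (donors 0.88, 1.24 and 1.68). Between 96 and 8 h it grew by 3.64 for Ubd (donors 2.54, 4.10 and 4.27), by 1.11 for Uba7 on 1386277_at (donors 0.60, 1.36 and 1.38) and by 0.97 for Uba7 on 1379633_a_at (donors 0.50, 1.07 and 1.36). The 2 probe sets of Uba7 read the same gene and are not independent.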

How the results depend on the processing

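Leaving out the dim Uba7 probe set 1379634_at, the other 8 member probe sets were called higher with IFNγ at all 4 times in each of 332 values under 11 alternatives (highest adjusted p 0.00433). Of 1182 values of single differences under the alternatives, 1077 kept their direction and side of the threshold, 85 lost the call and 15 gained it. The sign turned in 5, all of changes of the IFNγ difference between 96 and 8 h that were not called: Isg15 without donor 3 (range without single donors −0.0683 to 0.450), Dtx3l without donor 2 (−0.308 to 0.255), and Uba7 1379634_at without donor 1 (0.116), without donor 2 (−0.313 to 0.175 over donors) and without the T3+IFNγ arrays of donor 2 at 8 and 24 h (0.0868). With donors as blocks (the pairing of donors) the members called were 4 where 3 were called from 8 to 24 h, at T3 96 h and in both changes of the IFNγ difference, and 3 where 2 were called from 48 to 96 h, and no other member count changed. Where only the groups compared were fitted, 1 member was called from 24 to 48 h and 1 in the change of the IFNγ difference at 24 h, Dtx3l at T3 96 h was lost (adjusted p = 0.0903), and so were Ubd (0.0846) and Uba7 1379633_a_at (0.0988) in the change at 24 h and Uba7 1379633_a_at (0.0664) in the change at 96 h. With 1 probe set for each gene 1 member was called from 24 to 48 h and 1 from 48 to 96 h. Quantile normalization left 1 from 48 to 96 h, and leaving out the T3+IFNγ arrays of donor 2 at 8 and 24 h left 1 from 24 to 48 h. Leaving out single donors gave 8 to 9 members called with IFNγ at each time, 0, 1, 1 to 3 and 1 to 3 with T3, 3 to 4 from 8 to 24 h, 0 to 2 from 24 to 48 h, 0 to 3 from 48 to 96 h, 4 to 7 from 8 to 96 h, and 0 to 3 and 1 to 3 in the changes of the IFNγ difference at 24 and 96 h.

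Counts over all probe sets moved more. Leaving out single donors gave 555 to 1382 (1125 with all donors), 988 to 2831 (2691), 1467 to 4013 (3724) and 1573 to 2834 (3132) with IFNγ, 189 to 1938 (2424), 5203 to 8041 (8208), 7249 to 9935 (10366) and 10443 to 12737 (13337) with T3, 2631 to 6483 (5675) from 8 to 24 h, 815 to 3943 (3222) from 24 to 48 h, 2249 to 5931 (5416) from 48 to 96 h, 6827 to 10664 (10221) from 8 to 96 h, and 9 to 303 (147) and 229 to 934 (919) in the changes of the IFNγ difference. With 1 probe set for each gene, which tests fewer features, 748, 1750, 2290 and 1924 were called with IFNγ, 4967, 6132 and 7528 with T3 at 24, 48 and 96 h, 3548 from 8 to 24 h, 3415 from 48 to 96 h, 6010 from 8 to 96 h and 95 in the change of the IFNγ difference at 24 h. Fitting only the groups compared gave 635 and 1763 with IFNγ at 8 and 24 h, 320 with T3 at 8 h, 3491 from 8 to 24 h and 55 in the change at 24 h. Donor blocks gave 3892 with T3 at 8 h and 305 and 1626 in the changes at 24 and 96 h. Without the T3+IFNγ arrays of donor 2 at 8 and 24 h there were 3616 from 8 to 24 h, 2064 from 24 to 48 h and 65 in the change at 24 h. The causes were not tested. Median centring and quantile normalization moved the median of all probe sets by under 0.1.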

Other observations

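E1 and E2 enzymes of the general ubiquitin machinery differed between T3 and PDGF cultures. Of 7 other E1 enzymes measured, 6 were lower and 1 higher with T3 at 96 h than with PDGF by limma, beside 22.8% and 20.2% of all probe sets. Sae1, a subunit of the E1 enzyme of SUMO, had a difference of −1.40 (adjusted p = 1.12e-08) and Uba6, which activates FAT10 as well as ubiquitin, a difference of −1.01 (adjusted p = 8.29e-08), while Uba3, a subunit of the E1 enzyme of NEDD8, was higher by 0.33 (adjusted p = 0.0131). These genes were named after their values were seen. Of 16 E2 enzymes, 6 were higher and 6 lower at that time.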
